A study of Homo sapiens with 9 samples.

Results

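The keratin genes KRT8, KRT18, KRT19, KRT7, KRT10, KRT5, KRT14 and KRT17 were examined in RNA of vesicles shed by H9 cells, an established human embryonic stem cell (hESC) line. All probe sets of the HG-U133 Plus 2.0 array annotated with one of these 8 symbols were taken, which gave 13 of the 54675 probe sets, for 7 of the 8 genes. The 4 KRT7, 3 KRT10 and 2 KRT19 probe sets each share a target gene and are not independent. KRT8, KRT18, KRT5 and KRT14 had 1 probe set each, and no probe set was listed for KRT17, a keratin of hair follicles and stressed epidermis. No keratin probe set carried several gene symbols. KRT8 (gene ID 3856), KRT18 (3875), KRT7 (3855) and KRT5 (3852) lie on chromosome 12, and KRT19 (3880), KRT10 (3858), KRT14 (3861) and KRT17 (3872) on chromosome 17. KRT8 and KRT18 overlap in the RefSeq annotation of GRCh38.p14.

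Keratins are the intermediate filament proteins of epithelial cells, and a filament is built from pairs of a type I and a type II chain. KRT18 and KRT19 are type I chains of simple epithelia that pair with the type II chains KRT8 and KRT7, and human embryonic stem cells, which grow as epithelial sheets, contain KRT8 and KRT18. KRT5 and KRT14 are the pair of basal keratinocytes, and KRT10 is a type I keratin of the cells above the basal layer. Extracellular vesicles carry mRNA of the cell that sheds them. Microvesicles (MVs) bud from the plasma membrane, and exosomes (EXOs) are smaller vesicles released from endosomal compartments.

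The 3 vesicle preparations (MVs, EXOs and non-fractionated vesicles, termed hESEVs) were hybridized on 3 arrays each, and the study's methods describe the arrays of a group as biological samples. MVs were pelleted at 16500 g for 1 hour, EXOs from the remaining supernatant at 120000 g for 2 hours, and hESEVs directly at 120000 g for 2 hours. All cells were untreated H9 hESCs kept in mTeSR1 medium on Matrigel, without serum or feeder cells. For hESEVs the labels and the study's methods differ in how the medium was cleared of debris and apoptotic bodies and in the speed and length of the pelleting spin, so whether hESEVs and the fractions were cleared alike is not settled. A single cell line was used, and in RNA of whole pellets fewer vesicles of a type and less RNA per vesicle cannot be told apart.

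Signals are MAS5 intensities on a linear scale, and the arrays had medians of 358 to 429.7. Pearson's r between arrays of a group, across probe sets, lay between 0.821 and 0.827 in MVs, 0.765 and 0.768 in EXOs, and 0.785 and 0.795 in hESEVs. Background was set at the 90th percentile of probe sets of tissue-restricted genes, which was 771 in MVs, 1123 in EXOs and 1045 in hESEVs. Of 12 measured pluripotent stem cell marker genes, 9 had a mean above background in MVs, 6 in EXOs and 8 in hESEVs. Of the 13 keratin probe sets, 6 had a mean above background in MVs, 1 in EXOs and 3 in hESEVs. With 1 probe set per gene, these counts were 4, 1 and 2 of the 7 keratin genes. Of all 19775 genes they were 5893 in MVs, 2764 in EXOs and 3467 in hESEVs, so fewer genes above background in EXOs was common to the whole array. Signals of different probe sets are not set against each other, because probe sets differ in their response.

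**Figure D1:**
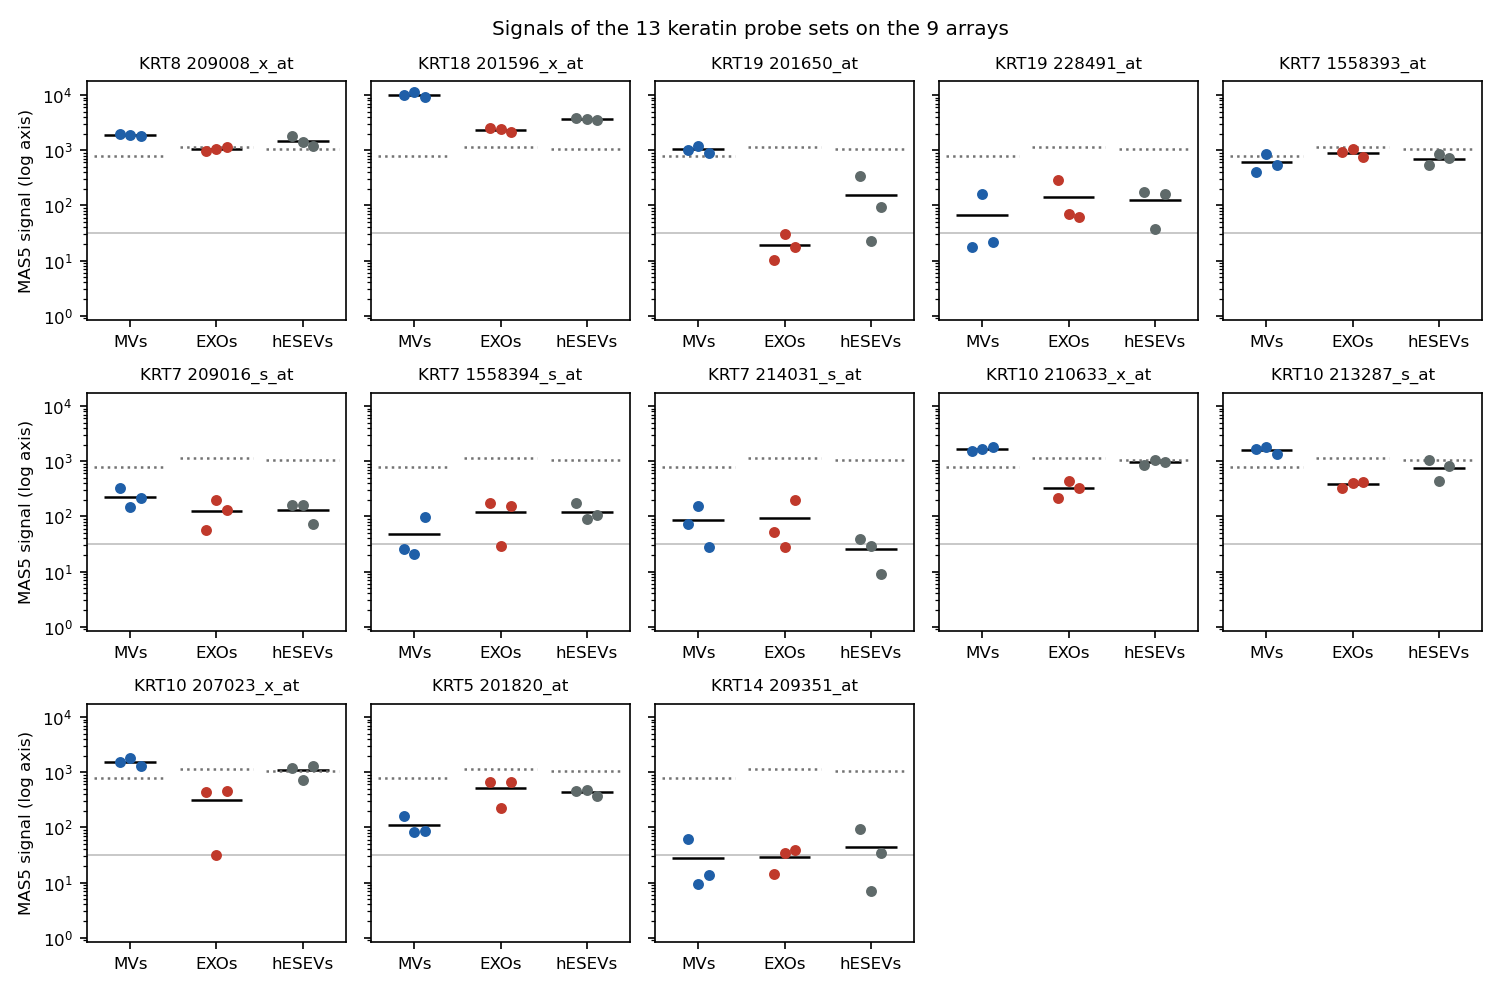
MAS5 signal (log axis) of each keratin probe set on each array, with MVs, EXOs and hESEVs from left to right, the group mean as a black line, the group's background level as a dotted line and the floor of 32 as a grey line. KRT18 lay above background in all 3 vesicle types, and the KRT19 probe set 201650_at reached 1189 in MVs but no more than 30.4 in EXOs.

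KRT18, the type I keratin of simple epithelia, was the brightest keratin probe set against the rest of the array. The KRT18 probe set 201596_x_at read 9895, 11202 and 9316 in MVs, 2514, 2414 and 2134 in EXOs, and 3833, 3711 and 3499 in hESEVs. The groups did not overlap, with MVs high, EXOs low and hESEVs between them but closer to EXOs. Mean signals were 10138 ± 966 in MVs, 2354 ± 197 in EXOs and 3681 ± 169 in hESEVs (SD, n = 3 each), at the 99.1, 98.7 and 98.9 percentiles of all probe sets in MVs, EXOs and hESEVs in that order. KRT18 was the only keratin whose EXOs mean exceeded the EXOs background.

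KRT8, the type II partner of KRT18, was measured by 1 probe set. This probe set, 209008_x_at, read 1946, 1918 and 1834 in MVs, 966, 1050.2 and 1138 in EXOs, and 1847, 1420 and 1197 in hESEVs. The MVs arrays all lay above the EXOs arrays, whereas hESEVs overlapped MVs and lay above EXOs. Means were 1899 ± 58.5 in MVs, 1051 ± 85.9 in EXOs and 1488 ± 331 in hESEVs (SD, n = 3 each), of which only the EXOs mean was under background.

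KRT19, a type I keratin of simple epithelia, had 2 probe sets that did not behave alike. The probe set 201650_at read 1015, 1189 and 894 in MVs, 10.3, 30.4 and 17.8 in EXOs, and 337, 22.4 and 94.8 in hESEVs. All EXOs arrays were below the floor of 32 and all MVs arrays above the MVs background, while hESEVs spread widely and overlapped EXOs. The probe set 228491_at read 17.6, 160 and 21.3 in MVs, 290, 69.3 and 62.2 in EXOs, and 172, 37.5 and 163 in hESEVs, so that its groups overlapped and its means were all below background.

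KRT10, known from differentiating epidermis, was measured by 3 probe sets whose MVs arrays all lay above the EXOs arrays. The probe set 210633_x_at read 1509, 1638 and 1845 in MVs, 213, 444 and 321 in EXOs, and 847, 1053 and 970.2 in hESEVs, with no overlap among the 3 groups. The probe set 213287_s_at read 1635, 1821 and 1374 in MVs, 332, 397 and 418 in EXOs, and 1049, 432 and 827 in hESEVs. The probe set 207023_x_at read 1515, 1794 and 1293 in MVs, 447, 30.9 and 455 in EXOs, and 1198, 728 and 1315 in hESEVs, where 1 EXOs array was under the floor. All KRT10 means in MVs exceeded background, and all in EXOs were below it.

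KRT5, the basal type II keratin, was the only keratin whose MVs arrays all lay below its EXOs arrays. It read 163, 81.8 and 85.0 in MVs, 658, 221 and 665 in EXOs, and 448, 469 and 375 in hESEVs. Every one of these signals was under the background of its own group. Its partner KRT14 read 60.4, 9.37 and 13.9 in MVs, 14.5, 34.5 and 38.2 in EXOs, and 93.2, 7.08 and 34.6 in hESEVs, with all groups overlapping. The probe set of KRT7, a type II simple keratin, with the highest signals, 1558393_at, read 406, 868 and 548 in MVs, 913, 1032 and 758 in EXOs, and 534, 845 and 733 in hESEVs, also overlapping. All 4 KRT7 probe sets had means below background in every group.

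The comparison of MVs with EXOs asks how the 2 fractions differ in mRNA content, and it was tested with limma over all 54613 non-control probe sets, with signals under 32 set to 32 and a probe set called at an adjusted p under 0.05 and at least a 2-fold difference. KRT18, KRT19 (201650_at) and KRT10 (210633_x_at and 213287_s_at) were higher in MVs. These are 4 of 13 keratin probe sets, where 7.23% of all probe sets were called higher. No keratin probe set was called lower, where 1.97% of all were. At an unadjusted p under 0.05 and 2-fold, limma gave 5 higher and 1 lower and the methods' t-test 4 higher and 1 lower. The latter of these called 4692 higher and 2650 lower of all 54613 probe sets. The arrays of MVs and EXOs did not overlap for 6 keratin probe sets that were higher and 1 that was lower, against 13.3% and 21.7% of all probe sets. The median difference over all probe sets was -0.29 on the log2 scale.

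For KRT18, MVs exceeded EXOs 4.30-fold (log2 difference 2.11, SE 0.11, limma adjusted p = 9.997e-06). This size depended on the scaling. Quantile normalization, which gives all arrays the same distribution of signals, left a log2 difference of 0.63 (adjusted p = 0.021), under 2-fold, whereas leaving out any array kept it at 2.03 to 2.16. KRT19 (201650_at) gave the widest difference, 5.00 on the log2 scale (SE 0.51, adjusted p = 0.00053). Because every EXOs array was under the floor, that value follows the floor and was 5.85 with a floor of 1 and 3.36 with a floor of 100. The other KRT19 probe set, 228491_at, differed by -0.98 (SE 0.85, limma adjusted p = 0.49) and was not called. Averaging both KRT19 probe sets gave 2.01. The MVs mean of 201650_at did not exceed the EXOs background of 1123, so no fold is given.

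KRT10 was higher in MVs by 210633_x_at (log2 difference 2.41, SE 0.29, adjusted p = 0.0012) and by 213287_s_at (2.07, SE 0.20, adjusted p = 0.00032). Both EXOs means were under background, and with the EXOs background in place of the EXOs signal MVs were at least 1.48-fold and 1.42-fold higher. Both differences changed little with quantile normalization, at 2.35 and 2.04. The third KRT10 probe set, 207023_x_at, differed by 3.03 (SE 0.95, adjusted p = 0.083) and was not called. Without the 1 EXOs array under the floor it differed by 1.75 and was called (adjusted p = 0.0029). The KRT8 difference of 0.86 (SE 0.12, adjusted p = 0.0032) passed the p threshold, but at 1.81-fold stayed under the fold threshold. With each array centred on its median, KRT8 differed by 1.09 and was called, and with quantile normalization it differed by 0.65, close to the 0.63 of KRT18.

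KRT5 differed by -2.14 (SE 0.65, adjusted p = 0.077), with mean signals of 110 ± 46.1 in MVs and 515 ± 254 in EXOs (SD, n = 3 each), both under background. With 1 probe set per gene, and so fewer tests, its adjusted p was 0.047, and without the lowest EXOs array, replicate 2, it was 0.049 at a difference of -2.66. The 4 KRT7 probe sets differed by -0.63, 0.94, -1.04 and 0.04, and KRT14 by 0.18, none of them called. The 95% interval was -1.33 to 0.07 for KRT7 by 1558393_at and -0.52 to 0.89 for KRT14, which include differences beyond 2-fold for KRT7 and close to it for KRT14.

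**Figure D2:**
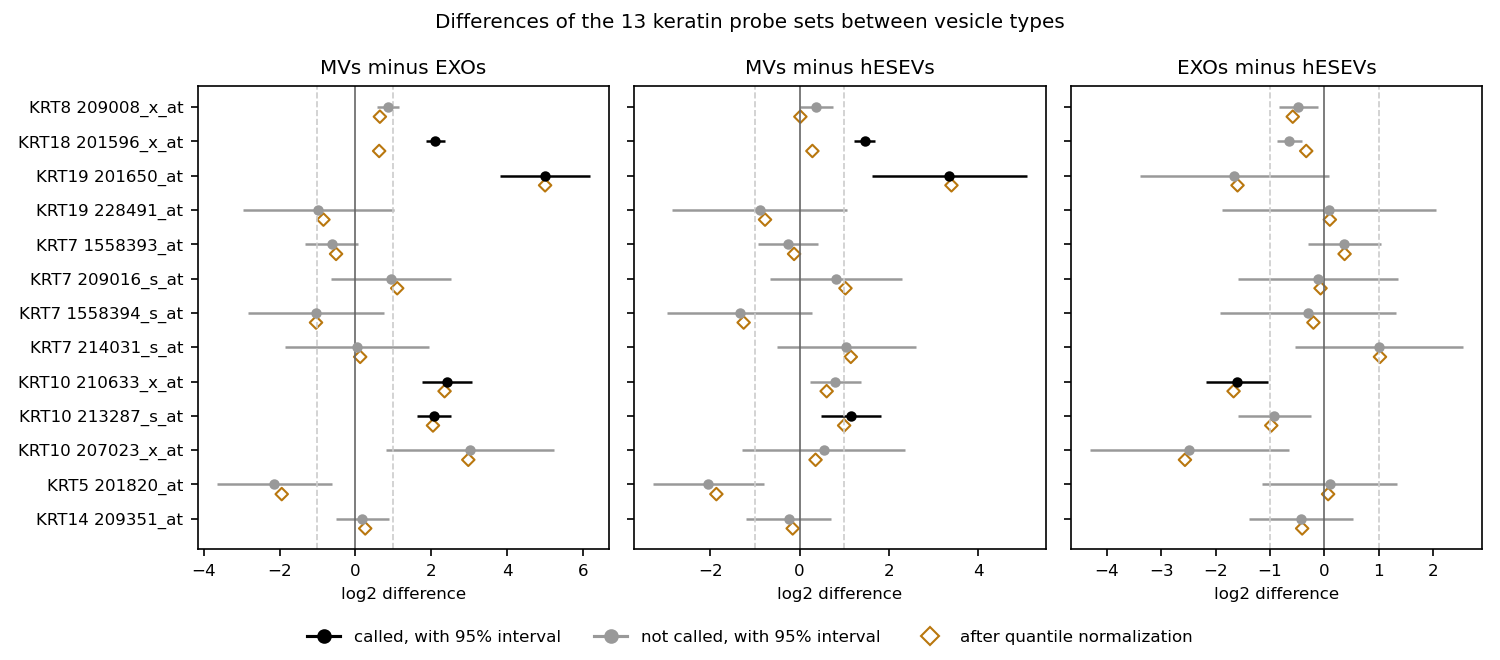
Log2 difference of each keratin probe set in the 3 comparisons, with its 95% interval, black where called and grey where not, dashed lines at 2-fold, and diamonds for the value after quantile normalization. In MVs minus EXOs the KRT18 diamond sits at 0.63, against 2.11 without that normalization, while the KRT10 and KRT19 diamonds lie on or near their points.

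KRT8 and KRT18 were also compared within each array, where a linear scaling factor cancels. The log2 signal of KRT8 minus that of KRT18 was -2.35, -2.55 and -2.34 in MVs, -1.38, -1.20 and -0.91 in EXOs, and -1.05, -1.39 and -1.55 in hESEVs. The MVs arrays all lay below those of EXOs and hESEVs, and EXOs overlapped hESEVs. The mean was -2.41 ± 0.12 in MVs and -1.16 ± 0.24 in EXOs (SD, n = 3 each), a change of -1.25 (two-sided exact permutation p = 0.1, the smallest that 3 against 3 arrays allow). The EXOs mean signal of KRT8 (1051) was under the EXOs background of 1123, and that of KRT18 (2354) was above it. The part of background signal in this change was not tested. The change vanished with quantile normalization, an alternative added after the data were seen, where it was 0.02 (exact permutation p = 1).

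**Figure D3:**
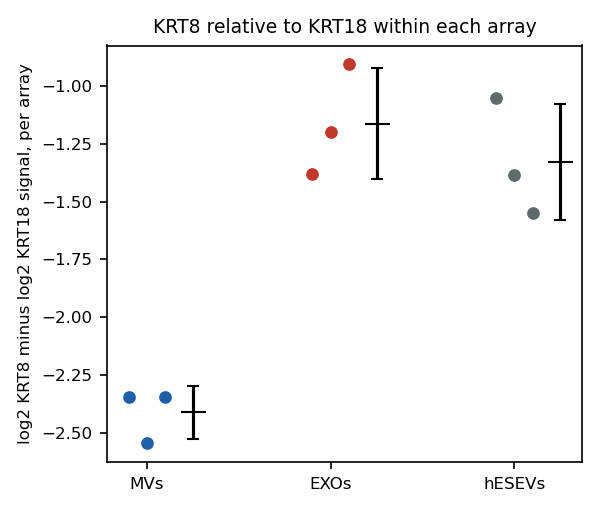
Log2 KRT8 minus log2 KRT18 signal on each array (points) for MVs, EXOs and hESEVs, with the group mean ± SD as a black bar. The 3 MVs arrays lie between -2.55 and -2.34, below all EXOs and hESEVs arrays. The EXOs mean signal of KRT8 was under background.

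The comparisons with hESEVs ask how each fraction relates to the whole preparation, and they share the 3 hESEVs arrays. KRT18, KRT19 (201650_at) and KRT10 (213287_s_at) were higher in MVs than in hESEVs. These are 3 of 13 probe sets, where 4.25% of all were called higher, and no keratin was called lower, where 1.05% of all were. Limma at an unadjusted p gave 3 higher and 1 lower, as did the methods' t-test, which called 3419 higher and 1744 lower of all 54613 probe sets. The arrays did not overlap for 4 higher and 1 lower keratin probe sets, against 12.1% and 17% of all probe sets.

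The KRT18 difference between MVs and hESEVs was 1.46 on the log2 scale (SE 0.10, adjusted p = 8.91e-06), and 0.29 after quantile normalization, which ended the call (adjusted p = 0.23). KRT19 by 201650_at differed by 3.35 (SE 0.78, adjusted p = 0.027). That call was lost when any MVs array or hESEVs replicate 2 or 3 was left out, with adjusted p of 0.061 to 0.081, and the difference was 2.52 without hESEVs replicate 2. The hESEVs mean of 151 was under background with 1 array under the floor, and the difference was 3.52 with a floor of 1 and 2.77 with a floor of 100. The MVs mean of 1033 did not exceed the hESEVs background of 1045. The other KRT19 probe set, 228491_at, differed by -0.89 (SE 0.89, limma adjusted p = 0.61). Averaging both KRT19 probe sets gave 1.23 (limma adjusted p = 0.34), which was not called. KRT10 by 213287_s_at differed by 1.15 (SE 0.30, adjusted p = 0.045), against a hESEVs mean of 769 that was under background, and lost its call in all but 1 of the 9 fits that leave out an array. The other KRT10 probe sets differed by 0.80 and 0.54 and KRT8 by 0.37 (adjusted p = 0.096, 0.76 and 0.21). KRT5 differed by -2.04 (SE 0.56, adjusted p = 0.053).

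Between EXOs and hESEVs a single keratin probe set was called. KRT10 by 210633_x_at was lower in EXOs, by -1.61 on the log2 scale (SE 0.26, adjusted p = 0.0053), where 1.95% of all probe sets were called lower. Both means, 326 in EXOs and 957 in hESEVs, were under background, so the size of this difference is not that of 2 detected levels. With only the 6 arrays compared in the fit, its adjusted p was 0.064. No keratin was called higher, where 0.103% of all were, and at an unadjusted p under 0.05 limma gave 0 higher and 2 lower and the methods' t-test 0 higher and 1 lower. The latter of these called 660 higher and 1667 lower of all 54613 probe sets. KRT18 differed by -0.65 (SE 0.10, adjusted p = 0.0054), which passed the p threshold but not 2-fold. For 5 keratin probe sets the EXOs arrays all lay below the hESEVs arrays and for 0 above them, against 8.7% and 8.1% of all probe sets.

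On the linear scale the hESEVs mean of KRT18 lay 17.1% of the way from the EXOs mean to the MVs mean. For KRT8, whose EXOs mean was just under background and whose hESEVs arrays spread widely, that place was 51.5%. These places are descriptions, and none is given for the keratins whose EXOs signal was far under background.

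Lists of related genes were read beside the keratins with 1 probe set per gene, in MVs minus EXOs, where 11.4% of 19775 genes were called higher and 2.77% lower and the median difference was -0.23. These shares belong to the adjusted calls, and no count over all genes was taken for the unadjusted ones. Of the 7 keratin genes measured, 3 were called higher and 1, KRT5, lower, with a median of 0.86. Of 20 other type I keratins, 0 were called higher and 1, KRT23, lower (-1.73, adjusted p = 0.029), with a median of -0.25 and 0 higher at an unadjusted p under 0.05 by limma or the methods' t-test. The KRT23 call was lost when any 1 of the 6 arrays was left out and with median centring, and both KRT23 means, 145 in MVs and 481 in EXOs, were under background. Of 17 other type II keratins, 0 were called in either direction, with a median of -0.64. Unadjusted, limma gave 1 higher and 2 lower and the methods' t-test 1 higher and 1 lower. Of the 20 other type I keratins, 2 had a mean above background in MVs, 1 in EXOs and 0 in hESEVs. Of the 17 other type II keratins, 0 did in any group.

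Among 15 other intermediate filament genes, 3 were called higher and 0 lower, with a median of 0.42. They were VIM, the filament protein of mesenchymal and many cultured cells (3.05), NES, of neural and other progenitors (4.82), and NEFM, a neurofilament chain (1.88). Their EXOs means (394, 223 and 450) were under the EXOs background of 1123, so these sizes are not those of 2 detected levels. Unadjusted, limma gave 5 higher and 0 lower and the methods' t-test 3 and 0. Among 20 genes of desmosomes and of the linkers that tie keratin filaments to junctions, 6 were higher and 1 lower, with a median of 0.37. DST, a linker of filaments to hemidesmosomes, differed by 2.99, DSP, which anchors keratins in desmosomes, by 1.64, and PPL by 2.88, while EVPL, an envelope protein of stratified epithelium, was lower at -2.53. The EXOs means of DSP (860) and PPL (206) and both EVPL means (39.9 in MVs and 287 in EXOs) were under background. When all probe sets per gene were averaged, 3 of these genes were higher and the median was -0.088. The EVPL call was lost without any 1 MVs array or without EXOs replicate 1.

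Among 23 epithelial junction genes, 9 were higher and 0 lower, with a median of 0.78 (unadjusted, 10 and 1 by limma and 8 and 0 by the methods' t-test). EPCAM, a surface glycoprotein of epithelia and hESCs, differed by 3.41, and CTNNB1, the β-catenin of adherens junctions, by 2.24. TJP1, a tight junction scaffold, differed by 1.34 and the cadherin CDH3 by 2.54. The EXOs means of EPCAM, CTNNB1, TJP1 and CDH3 (365, 1017, 778 and 173) were under the EXOs background of 1123. The CDH3 mean of 973 in MVs did not exceed that level either. Among 12 pluripotent stem cell markers 9 were higher and 0 lower, with a median of 1.73 (unadjusted, 9 and 0 by both tests), and with quantile normalization 5 were higher with a median of 1.02.

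Markers of other cell types, among them those in which KRT5, KRT14, KRT10 and KRT7 are usually found, were rarely called. Of 14 stratified epithelium genes 0 were called, with a median of -0.24 and 0 at an unadjusted p by either test, and their summed signal ran between 5939 and 6071 in MVs, between 7532 and 8694 in EXOs and between 7178 and 7988 in hESEVs. Of the 14, 1 had a mean above background in MVs, 1 in EXOs and 3 in hESEVs, beside 5893, 2764 and 3467 of all 19775 genes. Of 18 trophoblast genes 1, TEAD4, was higher (1.92) and 1, HAND1, lower (-1.29), with the TEAD4 call lost without MVs replicate 1 or 2, a median of -0.34 and a summed signal between 9787 and 10071 in MVs, between 10933 and 13089 in EXOs and between 10687 and 11476 in hESEVs. The TEAD4 mean in EXOs (319) and both HAND1 means (414 in MVs and 1005 in EXOs) were under background. Of the 18 genes, 5 had a mean above background in MVs, 2 in EXOs and 3 in hESEVs. Of 14 mesenchyme genes 0 were called, with a median of -0.41 and unadjusted 0 higher and 1 lower by both tests. Of these 14, 6 had a mean above background in MVs, 4 in EXOs and 4 in hESEVs. Of 54 tissue-restricted genes 0 were higher and 3 lower, a count that ran between 0 and 4 when an array was left out (PGC -1.05, SFTPC -1.90 and APOB -1.53), with a median of -0.49 (unadjusted, 0 higher and 6 lower by limma and 0 and 4 by the methods' t-test). The medians of these lists, the median of all genes (-0.23) and the KRT5 difference (-2.14) were all negative. The part of background signal in the KRT5 difference was not tested.

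**Figure D4:**
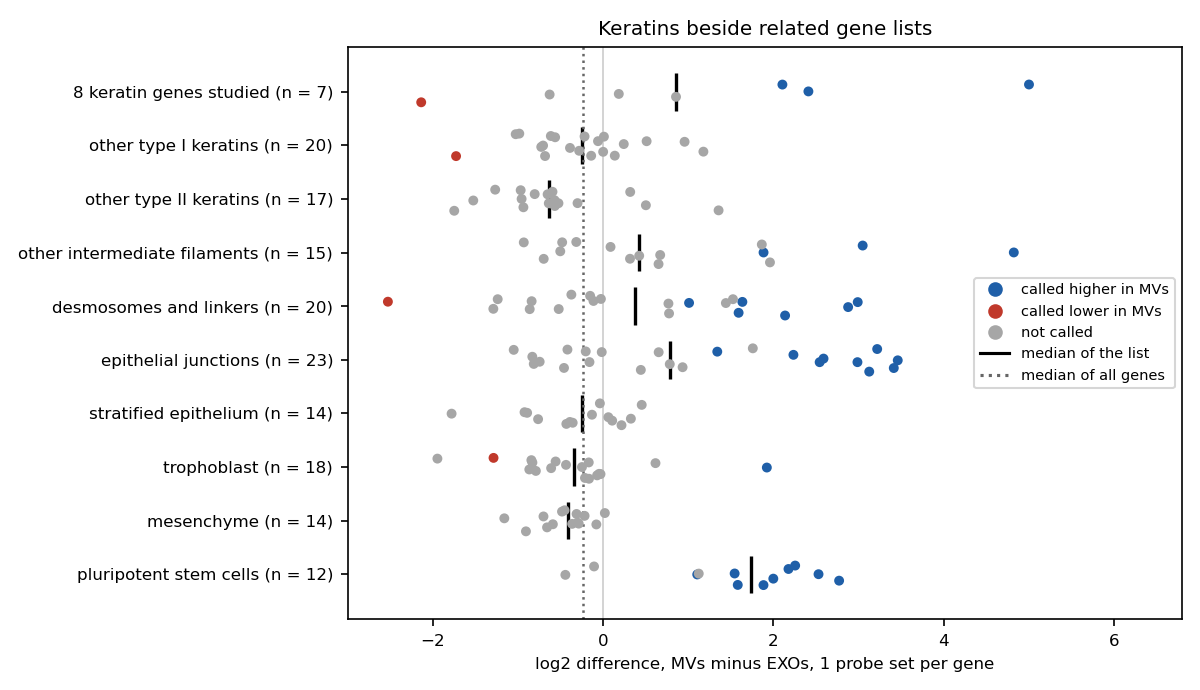
Log2 difference, MVs minus EXOs, of each measured gene (points, 1 probe set per gene) in the keratin genes and in related lists, blue where called higher in MVs, red where called lower and grey where not, with list medians as black bars and the median of all genes as a dotted line. KRT18, KRT19 and KRT10 were called higher, and 0 of the other type I and type II keratins were. Of those, 2 type I and 0 type II keratins had an MVs mean above background.

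The genes whose pattern over the 9 arrays was nearest to a keratin's were found among 41030 probe sets, by the root mean square difference of log2 signals after each was centred on its own mean. The nearest to KRT18 was JTB (0.075), followed by the chromatin protein HMGB1 (0.111) and NSA2 (0.113). JTB had mean signals of 5783 ± 369 in MVs, 1458 ± 155 in EXOs and 2237 ± 151 in hESEVs (SD, n = 3 each). The nearest to KRT8 were NOTCH2 (0.118), AGPAT5 (0.120) and ASS1 (0.121), and to KRT10 by 210633_x_at the ribosomal protein gene RPL38 (0.158), CHLSN (0.175) and EEF1D (0.179). KRT19 by 201650_at had no pattern as close, the nearest being CCT7 (0.330), TECR (0.440) and MRPS16 (0.504).

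Cross-hybridization limits how far a signal can be given to 1 gene. The only probe sets of KRT8 and KRT18 and 2 of the 3 of KRT10 have names ending in _x_at, which marks probes that can match several transcripts. RefSeq lists 52 KRT8 and 68 KRT18 pseudogenes, 5 of KRT19 and 8 of KRT17. The array annotation paired 2 probe sets with a KRT19 pseudogene, and their signals were not examined. The KRT8 pseudogene KRT8P12 had probe sets of its own, the brighter of which averaged 770 ± 189 in MVs, 1460 ± 271 in EXOs and 850 ± 189 in hESEVs (SD, n = 3 each). The part of pseudogene transcripts in the KRT8, KRT18 and KRT19 signals was not tested. KRT17P5, a KRT17 pseudogene, averaged 810.2 ± 113 in MVs, 1058 ± 104 in EXOs and 901 ± 184 in hESEVs (SD, n = 3 each).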

How the data were processed

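Total RNA of MVs, EXOs and hESEVs was hybridized to HG-U133 Plus 2.0 arrays, 3 per group. The authors deposited 1 MAS5 intensity per probe set and array on a linear scale, scaled to a target of 500. The MAS5 version is not given in the sources used here, and no detection calls or scans were used. A mean that trimmed 2% of probe sets at either end came to 500 on every array. Arrays were grouped by their titles. Probe sets were named through GEO's platform annotation: of 54613 non-control probe sets, 41091 had 1 gene, 1801 several and 11721 none listed. For 41037 of the probe sets with 1 gene, the gene ID matched RefSeq (GRCh38.p14). Names, chromosomes, neighbours and pseudogene counts were taken from RefSeq.

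Intensities under 32 were set to 32 and log2 transformed. Differences were tested with limma 3.58.1 (lmFit, eBayes with trend) in R 4.3.3, on 6 arrays for MVs minus EXOs and on all 9 arrays for the comparisons with hESEVs, with Benjamini-Hochberg adjustment over all non-control probe sets. Fold changes are on this floored scale. The methods' t-test was run on the same values. The study's methods name the RMA algorithm for normalization, and no RMA values were used here, so this t-test does not repeat the study's own selection. The test was checked on simulated data with differences planted only in bright probe sets. That check does not cover dimmer ones, among them the KRT19, KRT10, KRT5, KRT7 and KRT14 probe sets. Summaries and the exact permutation tests were made in Python 3.11.15 with scipy 1.17.1. For the lists, each gene took its probe set of highest average log2 signal over the 9 arrays.

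All keratin probe sets were named. Of each list except the pluripotent stem cell markers, up to 4 of the called genes with the smallest p were named. Genes behind a count of 5 or fewer were named where they passed the adjusted thresholds before any alternative setting. The 3 nearest genes of each keratin above background in MVs were also named. The members and lists were chosen with earlier results of these data known. Alternatives were quantile normalization, median centring, a shift to spike-ins, floors of 1 and 100, a low-signal filter, eBayes without trend, the t-test, other arrays in the fit, other probe set choices, a replicate block and leaving out each array. The number of arrays limits the precision.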

Additional observations from a re-analysis of the deposited data

How the results depend on the processing

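In MVs minus EXOs, where 4 keratin probe sets were higher and 0 lower, 1 was higher without probe sets named _x_at or _s_at, 3 with quantile normalization or at gene level, and 5 with median centring, the spike-in shift, a floor of 1 or all 9 arrays in the fit, and 1, KRT5, was lower with the unadjusted t-test, all 9 arrays in the fit, 1 probe set per gene, or probe sets of a gene averaged. Leaving out an array gave 4 to 5 higher and 0 to 1 lower. In MVs minus hESEVs the 3 higher calls became 1 with quantile normalization, the adjusted t-test, averaged probe sets, or without _x_at and _s_at probe sets, and 1 was lower with a floor of 1, the unadjusted t-test, 1 probe set per gene, or averaged probe sets. Leaving out an array gave 1 to 3 higher and 0 to 1 lower. In EXOs minus hESEVs the 1 lower call became 0 with the adjusted t-test, with 6 arrays in the fit, and without _x_at and _s_at probe sets, and was 1 to 2 when an array was left out, with 0 higher. The cause of these changes was not tested, beyond the fewer probe sets or tests of some settings. The within-array change between KRT8 and KRT18 was -1.36 to -1.12 when an array was left out and 0.019, reversed, with quantile normalization. Genes called higher over the related lists numbered 28, and 24 to 30 when an array was left out. Genes called lower numbered 6, but 13 with quantile normalization, 3 with median centring, 4 with the replicate block and 2 to 5 when an array was left out.

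Among single probe sets, signs reversed only for dim or uncalled ones. In MVs minus EXOs, KRT14 was -0.43 with a floor of 1 and -0.12 to 0.34 when an array was left out, and KRT7 (214031_s_at) was -0.12 with a floor of 100 and -0.52 to 0.79. In MVs minus hESEVs, KRT7 (1558393_at) was 0.067 with its probe sets averaged, and KRT14 was -0.55 to 0.25 when an array was left out. In EXOs minus hESEVs, KRT7 (1558394_s_at) was 0.20 with a floor of 100 and -0.75 to 0.49 when an array was left out, as KRT5 was -0.17 to 0.63, KRT7 (209016_s_at) -0.51 to 0.37, KRT19 (228491_at) -0.64 to 0.48 and KRT14 -0.71 to 0.066.

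Same-numbered arrays showed no shared deviation from their group means over all probe sets. Of 9 same-numbered correlations 0 exceeded 0.1 (-0.01 to 0.01). Each MVs array was set against the EXOs and the hESEVs arrays, and each EXOs array against the hESEVs arrays. In 3 of these 9 searches the array correlated best with its own number. The study describes MVs and EXOs from 3 hESC cultures. Most probe sets were under background, so these correlations cannot decide whether same-numbered arrays share a culture. With the replicate number as a block, KRT10 (213287_s_at) in MVs minus hESEVs had an adjusted p of 0.077, 29 list genes were higher, KRT23 lost its lower call, and no other call among the 13 keratin probe sets changed. Over all probe sets, calls in MVs minus EXOs were 3949 higher and 1078 lower, and 4765 and 336 with median centring, which added 0.23 to each difference. In MVs minus hESEVs they were 2320 and 572, 3168 and 219 with centring, which added 0.21, and 993 and 482 with quantile normalization. In EXOs minus hESEVs they were 56 and 1064, and 245 and 1055 with quantile normalization.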
